A study of Mus musculus with 4 samples.

Results

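Cytokine transcripts of activated B cells were examined as a set of 10 genes, taken from the deposited table of 55401 genes by symbol: the interleukin genes Il12a, Il12b, Il6, Il10 and Il15, the subunit gene Ebi3, the tumour necrosis factor family genes Tnf, Lta and Ltb, and Mif. All 10 symbols were found once and all 10 genes were tested. The study measured poly(A) RNA by RNA sequencing in 4 libraries of C57BL/6 splenic B cells, 2 from wild-type mice and 2 labelled Adar1 cKO, a B-cell conditional knockout of the gene for an enzyme that edits adenosine to inosine in double-stranded RNA. Cells of both genotypes had been purified with anti-CD43 microbeads and stimulated with anti-CD40 (1 µg/ml) and anti-IgM (10 µg/ml) for 36 h. No unstimulated cells are among the libraries, so levels describe stimulated cells of either genotype. The sources used here do not give the Cre driver, the deleted exons, or the sex and age of the mice, nor do they state whether libraries came from separate mice. What the p-values measure is thus the spread among these libraries, which may be technical.

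B cells act on other immune cells partly through secreted cytokines. The IL-12 family is built from shared chains: p35 (Il12a) with p40 (Il12b) forms IL-12, p19 (Il23a) with p40 forms IL-23, p28 (Il27) with EBI3 forms IL-27, and p35 with EBI3 forms IL-35. IL-10 restrains inflammation and is the signature product of regulatory B cells, whereas IL-6 supports T-cell and plasma cell responses. IL-15 is presented on its own receptor chain to NK cells and memory CD8 T cells. TNF and lymphotoxin alpha are close relatives, and lymphotoxin alpha with lymphotoxin beta (Ltb) makes a membrane complex through which B cells shape lymphoid tissue.

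Total counts lay between 17327480 and 19669651 per library, so that 1 count was worth 0.0508 to 0.0577 CPM (counts on a scale that makes libraries comparable). A count of 0 allows a level of up to 0.153 to 0.173 CPM (3 counts), a limit for counting error only. Wild-type library 2 stood apart in ribosomal RNA, which took 0.447% of its counts against 0.038% to 0.053% in the others. The targeted gene, Adar, had 137 and 150.0 CPM in wild type but 218 and 233 CPM in the libraries labelled cKO, a log2 difference of 0.65 ± 0.063 (SE), which goes against the label's direction. Gene-level counts do not show a deletion of some exons. The libraries are therefore called cKO-labelled, and each direction below rests on that label. All 12 genes of a short list of interferon-stimulated genes were higher in those libraries, with a median log2 difference of 3.14 (DESeq2 also called 12). Over all genes tested 12.2% were called higher, and the short list was chosen with earlier results of these data known. The B-cell marker Cd79a stood at 730.0 to 964 CPM. The 8 T-cell markers summed to 3.37 to 5.27 CPM per library. Of the CD3 chain genes, Cd3e had no more than 3 counts and Cd3g 10 to 23. In bulk RNA, fewer cells of a type and less RNA per cell cannot be told apart.

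Of the 10 cytokine genes, 5 rose in the cKO-labelled libraries (Il12b, Il15, Il10, Ltb and Il6), 1 fell (Mif), and 4 were not called (Il12a, Ebi3, Tnf and Lta), by the quasi-likelihood test of edgeR with a threshold of 0.05 on the Benjamini-Hochberg adjusted p over all 14180 genes tested. Over all those genes 21.7% were called, 12.2% as higher and 9.54% as lower. The rises of Il12b, Il15 and Il10 were at least 2-fold, a size and direction that 4.06% of all tested genes reached with a call. The median log2 difference was 0.29 over the members and -0.006 over all genes tested. In CPM, the genotypes did not overlap for the 6 called members, as for 57.9% of all tested genes, and they overlapped for the 4 others. Without wild-type library 2, or without cKO-labelled library 1, the number that rose was 4, because Il6 was no longer called.

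**Figure D1:**
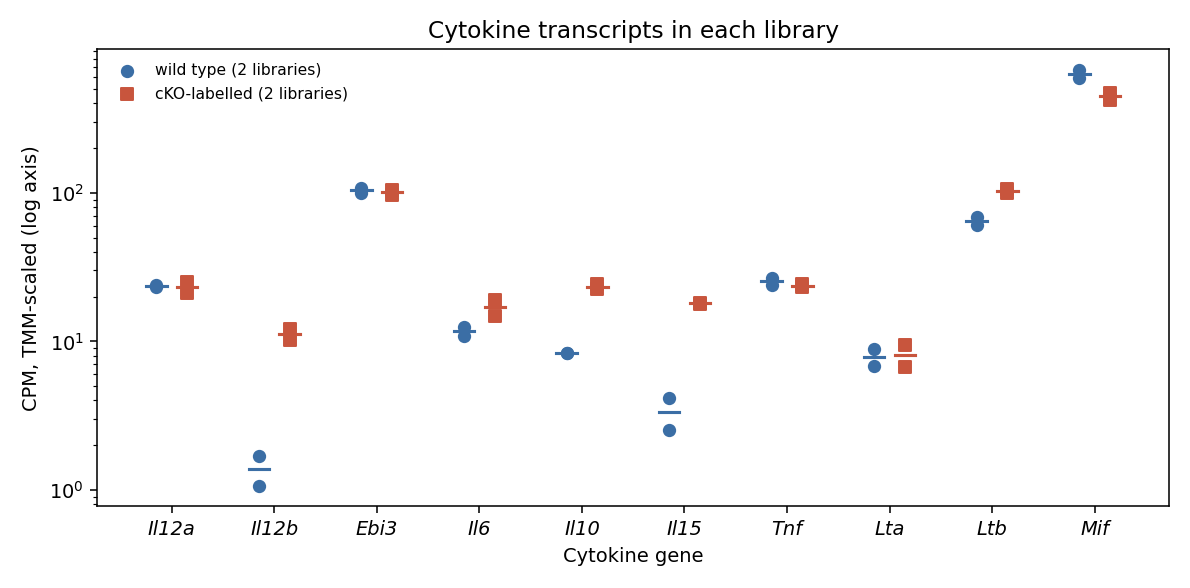
TMM-scaled CPM (vertical, log axis) of the 10 cytokine genes in each library; circles are the 2 wild-type and squares the 2 cKO-labelled libraries, and short lines are means. Il12b, Il15, Il10, Ltb and Il6 lie higher in both cKO-labelled libraries, Mif lies lower, and the other 4 genes overlap.

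Per length, the order of the members was led by Mif in every library. In FPKM as deposited (counts scaled by exonic length and library total), the wild-type means ± SD (n = 2) were 842 ± 71.7 for Mif, 89.9 ± 4.74 for Ebi3 and 42.3 ± 3.59 for Ltb, followed by Tnf at 15.5 ± 1.08 and Il12a at 13.9 ± 0.184. Il10 (6.34 ± 0.00707 FPKM), Lta (5.70 ± 1.04 FPKM) and Il6 (4.80 ± 0.417 FPKM) came next, and neighbours within that trio overlapped between libraries. Il15 at 1.48 ± 0.509 FPKM and Il12b at 0.695 ± 0.219 FPKM closed the wild-type order. In the cKO-labelled libraries Il10, at 17.8 ± 0.891 FPKM, stood next to Ltb and above Tnf and Il12a. Il15 there, at 7.96 ± 0.0707 FPKM, stood above Il6, Lta and Il12b, whose libraries overlapped from 1 neighbour to the next. Mif took 82.5% and 82.1% of the summed FPKM of the 10 genes in the wild-type libraries, and 74.0% and 71.0% in those labelled cKO.

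**Figure D2:**
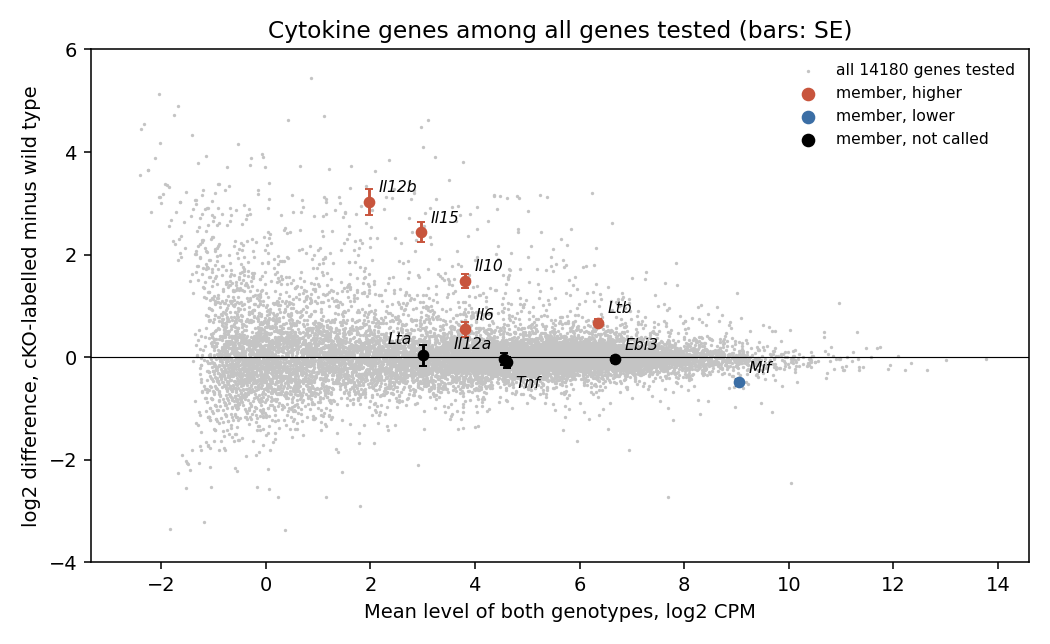
Log2 difference, cKO-labelled minus wild type (vertical), against the mean log2 CPM of both genotypes (horizontal) for all 14180 genes tested (grey) and the 10 cytokine genes (large points, bars are SE). Il12b (3.03), Il15 (2.43) and Il10 (1.49) have the largest differences of the 10, while Il12a, Ebi3, Tnf and Lta lie near 0.

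Among the IL-12 family chains, the p40 gene rose while both of the more abundant chains, p35 and EBI3, kept overlapping levels. Il12b (chromosome 11, 44400063 to 44414033, GRCm38, plus strand) encodes p40, the chain that IL-12 and IL-23 share. Its counts were 29 and 21 in the wild-type libraries but 184 and 211 in the cKO-labelled ones, or 1.68 and 1.07 against 10.2 and 12.1 CPM. Both cKO-labelled libraries thus lay far above both wild-type ones, and the wild-type pair also differed between themselves. The change was 3.03 ± 0.257 on the log2 scale, an 8.16-fold rise (edgeR adjusted p 3.73e-09).

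Il12a (chromosome 3, 68690644 to 68698547, plus strand), the p35 chain of IL-12 and IL-35, stood at 23.9 and 23.3 CPM in wild type and at 21.1 and 25.2 CPM in cKO-labelled libraries. The wild-type values lay between the cKO-labelled ones, and the log2 difference was -0.03 ± 0.113 (edgeR adjusted p 0.893). Ebi3 (chromosome 17, 55952640 to 55957022, plus strand), the partner chain of IL-27 and IL-35, had 108 and 99.9 CPM in wild type and 97.4 and 105 CPM in cKO-labelled libraries, with a log2 difference of -0.04 ± 0.065 (edgeR adjusted p 0.732). The libraries overlapped here as well. Gm16712 overlaps Ebi3 on the opposite strand with 308 to 376 counts, and the library kit does not mark strand, so reads of the pair cannot be told apart.

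The ratio of chains moved accordingly. Il12b stood at 0.0608 and 0.0394 of the FPKM of Il12a in wild type but at 0.419 and 0.416 in the cKO-labelled ones, so that p35 transcripts exceeded p40 transcripts per length in all 4 libraries. The ratio of Ebi3 to Il12a, by contrast, was 6.67 and 6.31 in wild type against 6.80 and 6.13, which overlap. These ratios rest on the exonic length in the deposited table and do not resolve isoforms.

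The remaining chains of the family were low. Il23a, the p19 chain of IL-23, had wild-type counts of 4 and 12 against cKO-labelled counts of 84 and 121, a log2 change of 3.73 ± 0.411 (edgeR adjusted p 2.73e-07). It was 3.23 without wild-type library 1 and 4.59 without wild-type library 2, and was called in both fits. Il23a passed the filter on low counts only through the cKO-labelled libraries. Per length, Il23a reached 2.08 and 3.09 FPKM in the cKO-labelled libraries, against 5.20 and 6.15 FPKM for Il12b. Il27, which encodes p28, had no count in wild type, 3 and 9 counts in cKO-labelled libraries, and was too low to be tested. Apobr overlaps Il27 on the opposite strand.

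**Figure D3:**
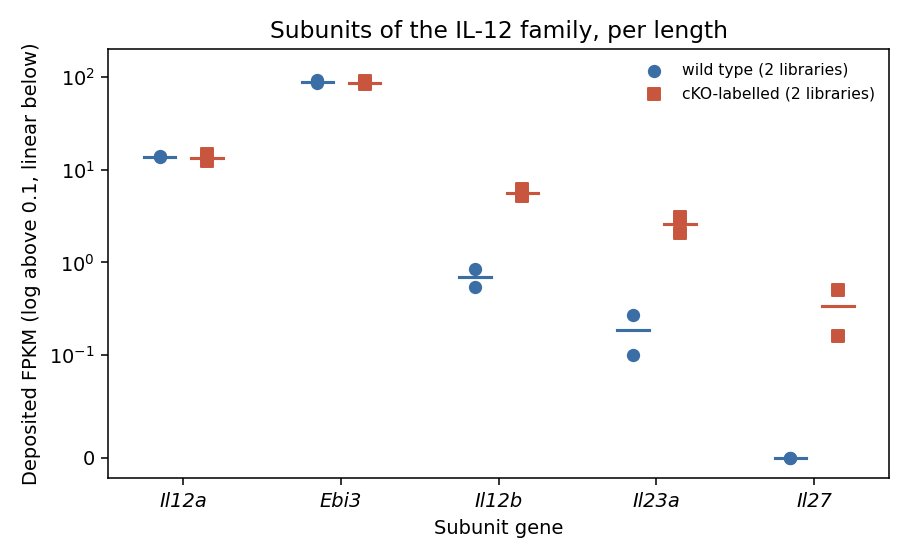
Deposited FPKM of 5 IL-12 family subunit genes in each library (vertical, log above 0.1 and linear below; circles wild type, squares cKO-labelled, lines means). Ebi3 and Il12a overlap between genotypes, Il12b and Il23a lie higher in both cKO-labelled libraries, and Il27 is listed at 0 in wild type.

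IL-10, IL-15 and IL-6 transcripts were all higher, by different amounts. Il15 (chromosome 8, 82331632 to 82403222, minus strand) had wild-type counts of 72 and 50 against cKO-labelled counts of 326 and 312, or 4.18 and 2.54 against 18.1 and 17.9 CPM. The cKO-labelled pair was tight and the wild-type pair was not. Its change of 2.43 ± 0.195 on the log2 scale was a 5.40-fold rise (edgeR adjusted p 1.39e-09). Il10 (chromosome 1, 131019845 to 131024974, plus strand) stood at 8.36 and 8.29 CPM in wild type and at 24.2 and 22.5 CPM in cKO-labelled libraries, from 144 and 163 against 435 and 393 counts. Both pairs were close together, and the rise was 2.80-fold, or 1.49 ± 0.135 on the log2 scale (edgeR adjusted p 1.21e-08).

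Il6 (chromosome 5, 30013114 to 30019981, plus strand) had 12.4 and 10.9 CPM in wild type and 19.0 and 14.9 CPM in cKO-labelled libraries. The lower cKO-labelled value was nearer to the wild-type values than to the other cKO-labelled one. The log2 change was 0.54 ± 0.149 (edgeR adjusted p 0.00997). Without cKO-labelled library 1 it was 0.35 (edgeR adjusted p 0.157) and without wild-type library 2 it was 0.45 (edgeR adjusted p 0.0708), so the call for Il6 rests on those libraries.

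The tumour necrosis factor genes form a cluster on chromosome 17, in which Ltb was called and Tnf and Lta were not. Ltb (35194439 to 35196320, plus strand) lies 3060 bases from Tnf (35199381 to 35202007, minus strand), which lies 1157 bases from Lta (35203165 to 35205351, minus strand). Ltb rose 1.59-fold, from 68.4 and 60.4 CPM to 99.4 and 106 CPM, or 0.67 ± 0.070 on the log2 scale (edgeR adjusted p 1.04e-07). Neither pair overlapped the other.

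Tnf, the inflammatory founder of the family, stood at 26.8 and 24.1 CPM in wild type and at 23.1 and 24.3 CPM in cKO-labelled libraries (log2 difference -0.10 ± 0.107, edgeR adjusted p 0.588). Lta, which encodes lymphotoxin alpha, had 8.94 and 6.87 CPM against 9.44 and 6.70 CPM (0.04 ± 0.202, edgeR adjusted p 0.932). For Lta the libraries within a genotype differed by more than the genotype means did. The ratio of Ltb to Tnf in FPKM was 2.77 and 2.71 in wild type against 4.65 and 4.70, whereas that of Tnf to Lta was 2.52 and 2.96 against 2.07 and 3.06. Of 6 genes next to the cluster 1 fell, the RNA helicase gene Ddx39b at -0.22 ± 0.058, as did 9.54% of all tested genes. None of the other 5 was called by edgeR or by DESeq2, at an adjusted or an unadjusted p under 0.05. Removal of the GC trend ended the call of Ddx39b (-0.13, edgeR adjusted p 0.0865), as did leaving out cKO-labelled library 1 (-0.18, edgeR adjusted p 0.0654). Tnfsf14, whose product LIGHT shares a receptor with the lymphotoxins, stood at 22.6 and 21.2 CPM against 16.9 and 23.7 CPM and was not called (edgeR adjusted p 0.648).

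Mif was the only member to fall. Mif (chromosome 10, 75859353 to 75860240, minus strand) encodes macrophage migration inhibitory factor, an abundant cytokine stored in the cytosol and released without a signal peptide, and its mean FPKM exceeded that of 99.6% of tested genes. It stood at 669 and 590.0 CPM in wild type and at 473 and 424 CPM in cKO-labelled libraries. Both cKO-labelled values lay below both wild-type ones, at 71.3% of the wild-type level, a log2 change of -0.49 ± 0.066 (edgeR adjusted p 5.90e-06). After removal of each library's trend with GC content the change was -0.32 (edgeR adjusted p 0.00246). The table holds 3 processed pseudogenes of Mif with 0 or 1 count per library, and reads that match gene and copy alike could have been left out of either, so its level is uncertain. Ddt, its nearest relative, had 48.0 and 44.1 CPM against 50.8 and 44.5 CPM and was not called (edgeR adjusted p 0.747).

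Promoter sequence was available for 8 of the 10 members, from RefSeq on GRCm38.p6; Il10 and Il15 had no entry. The 250 bases before the start annotated by RefSeq are shown for 5 of them, as examples of members that rose (Il12b, Il6, Ltb), fell (Mif) or were not called (Ebi3). They are written 5′ to 3′ on the strand of the gene, and capitals mark a match to 1 of 7 patterns searched on both strands: the kB consensus of NF-kB, the interferon-stimulated response element (a pair of GAAA runs 2 bases apart), the STAT element as TTCNNNGAA, AP-1 as TGANTCA, C/EBP as TTGCNNAA, CRE as TGACGTCA and the TATA box as TATAAA. No matches in the printed windows overlapped. The windows are chr11:44399813-44400062 for Il12b, chr5:30012864-30013113 for Il6, chr17:35194257-35194506 for Ltb, chr17:55952373-55952622 for Ebi3 and chr10:75860278-75860527, on the minus strand, for Mif. RefSeq starts can differ from the deposited gene coordinates given above, and the Ltb window extends past the deposited start of 35194439.
Il12b: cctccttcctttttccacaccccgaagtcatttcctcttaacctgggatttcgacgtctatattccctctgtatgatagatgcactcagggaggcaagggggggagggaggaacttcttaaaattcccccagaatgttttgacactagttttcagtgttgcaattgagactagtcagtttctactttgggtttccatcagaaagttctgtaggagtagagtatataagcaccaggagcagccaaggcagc
Il6: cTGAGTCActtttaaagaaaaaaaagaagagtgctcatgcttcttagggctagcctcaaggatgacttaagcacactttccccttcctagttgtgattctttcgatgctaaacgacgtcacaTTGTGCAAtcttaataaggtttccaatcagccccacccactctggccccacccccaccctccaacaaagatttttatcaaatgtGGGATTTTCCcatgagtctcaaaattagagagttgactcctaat
Ltb: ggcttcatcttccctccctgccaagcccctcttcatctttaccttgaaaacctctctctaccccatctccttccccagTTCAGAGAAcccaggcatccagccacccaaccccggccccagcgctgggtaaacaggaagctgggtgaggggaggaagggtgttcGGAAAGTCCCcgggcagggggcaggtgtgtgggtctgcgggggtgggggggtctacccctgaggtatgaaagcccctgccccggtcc
Ebi3: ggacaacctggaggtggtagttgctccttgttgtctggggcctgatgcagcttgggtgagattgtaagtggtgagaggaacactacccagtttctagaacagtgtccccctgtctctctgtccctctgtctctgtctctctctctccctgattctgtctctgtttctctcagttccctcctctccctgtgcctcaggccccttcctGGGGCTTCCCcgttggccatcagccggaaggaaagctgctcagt
Mif: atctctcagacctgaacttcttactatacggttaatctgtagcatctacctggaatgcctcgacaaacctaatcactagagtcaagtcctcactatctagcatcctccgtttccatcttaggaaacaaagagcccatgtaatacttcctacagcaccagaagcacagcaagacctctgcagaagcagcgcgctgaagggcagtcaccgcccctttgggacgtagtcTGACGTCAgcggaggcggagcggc
A kB consensus was found in the windows of Il6, Ltb (on the opposite strand) and Ebi3, and in 3.90% of all 32851 promoter windows of the same length. Il6 and Ltb rose while Ebi3 was not called, so a match was seen with either outcome. Il6 also held an AP-1 match (6.75% of all windows) and a C/EBP match on the opposite strand (9.56%), Ltb a STAT element (7.02%) and Mif a CRE (1.55%). Among the windows not printed, that of Lta, which was not called, also held the STAT element. Tnf and Lta each held a TATA box (12.4%). None of the 7 patterns occurred in the window of Il12b, the member with the largest rise, or in any window of Il12a, which was not called. No member window held the interferon-stimulated response element, which occurs in 2.98% of all windows. A match describes letters in this window, and binding was not measured.

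Of the 16 receptor genes of these cytokines, 15 were tested, 5 were higher and 3 were lower, with a median log2 difference of 0.12. Among all tested genes 12.2% were higher and 9.54% lower. Receptor chains of IL-12, IL-23 and IL-15 were among the higher genes, and those of IL-10 and IL-27 among the lower. Il12rb1, the chain that IL-12 and IL-23 both bind, rose from 8.18 and 6.51 CPM to 17.8 and 15.3 CPM (1.18 ± 0.162). Il23r was called higher at 3.55 ± 0.958 on few counts, 0 and 2 in wild type against 11 and 14, and DESeq2 did not call it (adjusted p 0.0702). It passed the filter on low counts only through the cKO-labelled libraries, so that the group where it is high decided that it was tested. Its log2 difference was 2.71 without wild-type library 1 (edgeR adjusted p 0.174) and 6.64 without wild-type library 2 (edgeR adjusted p 0.0339). Il12rb2, the other IL-12 chain, had 1 and 3 counts against 14 and 9 and was not tested, and it overlaps the abundant gene Serbp1 on the opposite strand.

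Il15ra, which presents IL-15 to neighbouring cells, rose from 24.3 and 28.3 to 46.9 and 44.9 CPM (0.80 ± 0.094), and Il2rb, the shared beta chain for IL-2 and IL-15, from 11.4 and 10.4 to 21.8 and 20.7 CPM (0.96 ± 0.132). The common gamma chain gene Il2rg was not called (0.07 ± 0.058). Il10ra, the ligand-binding chain for IL-10, fell from 58.6 and 54.6 to 43.6 and 43.2 CPM (-0.38 ± 0.076), so that its direction was opposite to that of Il10. Il10rb was called lower at -0.30 ± 0.105 but lost the call when library totals were used alone, under DESeq2, after removal of the GC trend, and without wild-type library 1 or cKO-labelled library 1 (adjusted p from 0.0542 to 0.285). Il27ra, a receptor chain for IL-27, fell from 44.6 and 42.3 to 26.4 and 30.9 CPM (-0.60 ± 0.094).

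The receptors of IL-6 and of the tumour necrosis factor cytokines were not called: Il6ra had a log2 difference of 0.21 ± 0.164, Il6st -0.21 ± 0.102, Tnfrsf1b 0.09 ± 0.084 and Tnfrsf14 0.03 ± 0.101. Tnfrsf1a, a TNF receptor gene, had wild-type counts of 13 and 9 against 17 and 33, which do not overlap in CPM. Its log2 difference of 1.23 ± 0.531 was the largest among the uncalled receptors (edgeR adjusted p 0.107). Ltbr had 9 to 18 counts, and both genes passed the filter on low counts only through the cKO-labelled libraries. Cd74, the invariant chain that also serves as a surface receptor for MIF, stood at 3277 and 2960 against 3371 and 3688 CPM. It was called higher at 0.18 ± 0.051, and lost the call without wild-type library 2 (0.10, edgeR adjusted p 0.391) or without cKO-labelled library 2 (0.11, edgeR adjusted p 0.0751). Without cKO-labelled library 2 the number of higher receptor genes was 3, since Cd74 was not called and Il23r did not pass the filter on low counts.

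**Figure D4:**
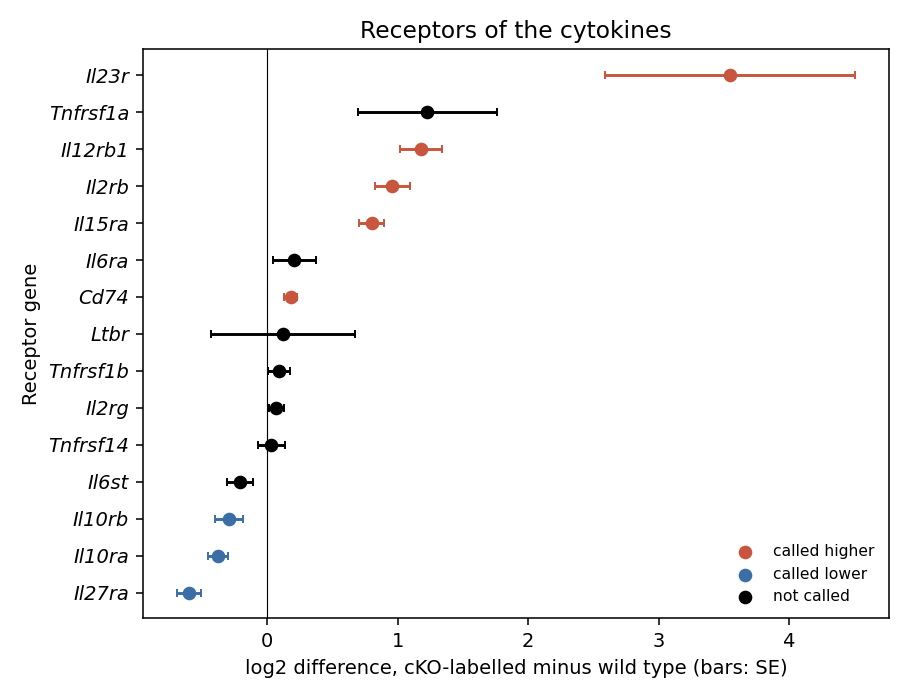
Log2 difference, cKO-labelled minus wild type (horizontal, bars are SE), of the 15 receptor genes tested (vertical). Il23r, Il12rb1, Il2rb, Il15ra and Cd74 were called higher and Il10rb, Il10ra and Il27ra lower; the wide bars of Il23r, Tnfrsf1a and Ltbr belong to genes with few counts.

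Of 20 other cytokine genes, 12 were tested, and 4 rose with none lower (5 higher and 0 lower at an unadjusted p under 0.05, and 3 and 0 by DESeq2). Shares over all tested genes were 12.2% higher and 9.54% lower. Il1b, which encodes the inflammatory cytokine IL-1 beta, had wild-type counts of 4 and 6 against cKO-labelled counts of 70 and 58 (3.70 ± 0.465). Tnfsf4, which encodes OX40 ligand, rose from 88.6 and 91.6 to 145 and 138 CPM (0.65 ± 0.061). Lif, an IL-6 family cytokine, rose by 1.67 ± 0.353 on the log2 scale from 16 and 28 counts. Ifng was called at 2.25 ± 0.696 on 5 and 2 against 15 and 18 counts, and lost the call when any 1 of the 4 libraries was left out (edgeR adjusted p from 0.0685 to 0.297) and under DESeq2 (adjusted p 0.126). Its log2 difference was 3.11 without wild-type library 1 and 1.65 without wild-type library 2. Both Il1b and Ifng passed the filter on low counts only through the cKO-labelled libraries, where they are high. Clcf1, an IL-6 family ligand counted with the partner chains and not among these 20, fell from 21.1 and 21.2 to 13.0 and 15.5 CPM (-0.57 ± 0.128). Thus Il6 and Lif rose while Clcf1 fell.

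Several transcription factors that act on cytokine genes were higher. Of 18 transcription factor genes, 17 were tested, 7 were higher and 1 lower, with a median of 0.10 (DESeq2 called 5 higher and 1 lower). Over all tested genes 12.2% were higher and 9.54% lower. Batf3, a partner of AP-1 factors, rose from 1.74 and 2.03 to 6.27 and 6.59 CPM (1.76 ± 0.267), Prdm1, the plasma cell regulator, by 1.10 ± 0.121 and Irf1 by 0.75 ± 0.062. Of the 5 NF-kB subunit genes 1 was called: Relb, from 113 and 104 to 119 and 134 CPM (0.22 ± 0.068, edgeR adjusted p 0.0212). It lost the call under DESeq2 (adjusted p 0.0770) and without wild-type library 2 or cKO-labelled library 2 (edgeR adjusted p 0.235 and 0.245). Nfkb1 (-0.05 ± 0.056), Rel (-0.06 ± 0.060), Rela (0.09 ± 0.065) and Nfkb2 (0.09 ± 0.053) were not called. After removal of the GC trend Rela and Nfkb2 were called higher (0.23 for both, edgeR adjusted p 0.0176 and 0.00136). Nfkbiz, an NF-kB cofactor for Il6, was higher at 0.24 ± 0.067 and lost the call under DESeq2 (adjusted p 0.0720) and without either wild-type library (edgeR adjusted p 0.0756 and 0.0732). Nfatc1 was lower at -0.24 ± 0.063 and was not called after removal of the GC trend, without wild-type library 2 or without cKO-labelled library 1 (edgeR adjusted p 0.0561, 0.0666 and 0.105).

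Of 12 genes for proteins that bind cytokine mRNA, 1 was higher and 1 lower, beside 12.2% higher and 9.54% lower over all tested genes. Arid5a, which stabilises Il6 mRNA, rose from 112 and 107 to 143 and 137 CPM (0.35 ± 0.061). Zc3h12a, whose product Regnase-1 degrades Il6 and Il12b mRNA, was called lower at -0.21 ± 0.076 (edgeR adjusted p 0.0470), and was not called under DESeq2 (adjusted p 0.197) or after removal of the GC trend (edgeR adjusted p 0.350). It also lost the call with library totals alone (edgeR adjusted p 0.0572), without wild-type library 1 (edgeR adjusted p 0.212) and without cKO-labelled library 1 (edgeR adjusted p 0.429). Among 10 genes of TNF and lymphotoxin signalling, 3 were called higher and none lower, beside 12.2% and 9.54% of all tested genes (2 lower at an unadjusted p under 0.05, and 2 higher and 0 lower by DESeq2). These were Traf1 at 0.35 ± 0.060, Tnfaip3, a brake on NF-kB, at 0.22 ± 0.060, and Adam17, the protease that sheds TNF, at 0.19 ± 0.061. Adam17 lost the call under DESeq2 and after removal of the GC trend (adjusted p 0.0916 and 0.130), and without wild-type library 1, wild-type library 2 or cKO-labelled library 2 (edgeR adjusted p 0.0614, 0.208 and 0.225). Tnfaip3 lost it without wild-type library 1 (edgeR adjusted p 0.140) or cKO-labelled library 2 (edgeR adjusted p 0.123).

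IL-12, IL-23, IL-10 and IL-1 beta are also made by myeloid cells, so markers of other cell types are given beside them. The marker calls stand beside 12.2% higher and 9.54% lower over all tested genes. Of 10 dendritic cell markers 5 were tested, and 4 were higher with none lower (4 and 0 also at an unadjusted p under 0.05 and by DESeq2): Fscn1 (3.21 ± 0.098), Flt3 (1.61 ± 0.107), Itgax (2.40 ± 0.480) and Zbtb46 (0.64 ± 0.079). The summed CPM of the 10 was 80.7 and 84.3 in wild type against 311 and 369 in the cKO-labelled pair, most of it from Fscn1, which encodes the actin bundling protein fascin and stood at 202 and 255 CPM there. Xcr1 was tested and not called, with 59 and 61 counts in wild type against 83 and 72. The others were too low to be tested. Cd209a and Clec10a had 0 counts in all 4 libraries and Clec9a 1 or 2. Siglech had 9 and 2 against 3 and 14 counts, and Ccl17 2 and 3 against 9 and 11. The part of dendritic cells in the rises of Il12b, Il23a, Il10 and Il15 was not tested.

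Of 10 macrophage and monocyte markers 6 were tested. Adgre1 was lower (-1.63 ± 0.089) and none was called higher by edgeR or DESeq2 (1 at an unadjusted p under 0.05). The summed CPM of the 10 was 130.0 and 124 against 47.9 and 56.6, most of it Adgre1 (111 and 108 against 30.3 and 40.3 CPM). The other 9 summed to 19.1 and 16.2 against 17.7 and 16.3 CPM, which overlap. Of 8 T-cell markers 2 were tested and none was called by edgeR or DESeq2, at an adjusted or unadjusted p under 0.05, and the sum was 3.37 and 3.41 against 3.67 and 5.27 CPM. NK-cell markers summed to 1.80 and 1.58 against 6.11 and 7.91 CPM. Most of the cKO-labelled sums came from Nkg7 (1.11 and 3.15 CPM) and Prf1 (3.61 and 3.04 CPM). Both were tested and called higher, and Nkg7 lost the call without cKO-labelled library 2. The other 6 NK-cell markers had 0 to 9 counts per library and were not tested. Neutrophil markers summed to 1.28 and 1.37 against 3.55 and 4.18 CPM, with 1 of 3 tested members, S100a9, called higher by edgeR (3 at an unadjusted p under 0.05) and none by DESeq2. Itgax, Nkg7 and S100a9 passed the filter on low counts only through the cKO-labelled libraries. S100a9 also lost the call without wild-type library 2 or cKO-labelled library 2 (edgeR adjusted p 0.235 and 0.284). Of 7 B-cell markers 4 were lower (Cd79a, Cd79b, Cd22 and Pax5), Blk was higher, and their summed CPM was 3563 and 3513 against 3129 and 3212. Of these 4, Pax5 was not called after removal of the GC trend (edgeR adjusted p 0.0628). The part of macrophages, T cells, NK cells and neutrophils, and of the change in B-cell markers, in the cytokine results was not tested.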

How the data were processed

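Reads had been turned by the authors into a deposited table of whole-number counts per gene, with 1 column for each of the 4 libraries and FPKM values beside it. The submitters' processing notes name HISAT2 2.0.1, HTSeq 0.6.1, cutadapt 1.9.1, bcl2fastq 2.17.1.14 and GRCm38; no source used here gives their roles, the annotation release or the strand setting. Per the labels' protocols, the library kit was NEBNext Ultra RNA, a kit without strand marking. The deposited FPKM values were recomputed from counts, exonic length and library totals, and the largest difference was 0.0050. All 55401 rows named a gene. Counts were tested in R 4.3.3 with edgeR 4.0.16. A filter on low counts (filterByExpr) asked for about 10 counts in at least 2 of the 4 libraries, of either genotype, and 15 in total. It kept 14180 genes. TMM factors were applied, and the genotypes were compared by the quasi-likelihood test with Benjamini-Hochberg adjustment over all tested genes. SE is the absolute log2 difference divided by the square root of F, with n = 2 libraries per genotype. CPM uses TMM-scaled library sizes. Data were simulated for this comparison (14091 genes, changes set in genes of at least 5 CPM). Recovered were 100% of 67 genes changed 4-fold, 100% of 67 changed 2-fold and 92.4% of 66 changed 1.5-fold. There were 6 false calls among 201. Every simulated gene had the same biological variation between libraries (6%) and no GC trend was set, so these shares hold for those settings.

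The 10 members and 14 context lists were chosen with earlier results of these data known, so the lists are described by counts and medians. Certain genes of these lists are not reported here, and the lists' counts and sums leave them out. Named were all members, all tested partner chains and receptors, up to 5 called genes of each further list, and called markers. The 5 NF-kB subunit genes, Cd3e, Cd3g, Xcr1 and the markers near 0 were named after their values were seen. Alternatives were other size factors, library totals, removal of ribosomal RNA rows, DESeq2 1.42.0, other filters, an offset for GC content (transcripts of GENCODE M21, also on GRCm38; 99.89% of tested genes matched), a replicate block, and leaving out each library.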

Additional observations from a re-analysis of the deposited data

How the results depend on the processing

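Of 130 re-estimates of the 10 members' differences (13 alternatives each), 121 kept direction and side of the threshold. Il12b, Il15, Il10, Ltb and Mif kept theirs under all 13, with ranges on the log2 scale of 2.72 to 3.37, 2.10 to 2.81, 1.42 to 1.54, 0.58 to 0.84 and -0.58 to -0.32. Among members, 2 re-estimates of Il6 lost the call and 7 of uncalled members changed sign. Ebi3 turned to 0.073 after removal of the GC trend, with or without the replicate block. Leaving out 1 library at a time, Ebi3 ranged from -0.105 to 0.010 (above 0 without wild-type library 1 or cKO-labelled library 1), Lta from -0.233 to 0.263 (below 0 without wild-type library 2 or cKO-labelled library 1) and Il12a from -0.162 to 0.089 (above 0 without cKO-labelled library 1). Of 685 re-estimates of the 48 other genes named by the rule and the 5 NF-kB subunit genes, whose alternatives were added after seeing the data, 626 were the same, 48 lost the call, 4 gained it (Rela and Nfkb2, after removal of the GC trend with or without the block) and 7 changed sign. These 7 were all in uncalled genes, which without 1 library at a time ranged from -0.219 to 0.582 (Ltbr), -0.048 to 0.142 (Ddt), -0.372 to 0.114 (Tnfsf14), -0.064 to 0.120 (Tnfrsf14) and -0.137 to 0.009 (Rel). DESeq2 called 795 genes lower over the whole table against 1353 by edgeR, and the cause was not tested. Leaving out 1 library at a time gave 4 to 5 higher and 1 lower member, 3 to 5 higher and 2 to 3 lower receptor genes, 4 to 5 higher and 1 lower among partner chains and other cytokines, and 1293 to 1469 higher and 984 to 1252 lower genes in all.

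Same-numbered libraries are not stated to be paired, and the difference between libraries 1 and 2 in wild type correlated with that in cKO-labelled libraries at r = -0.029 over 14180 genes. With the replicate block 1904 genes were higher and 1594 lower, and the block alone changed the call of no member, with 5 higher and 1 lower. Genes that did not reach about 10 counts in at least 2 libraries were removed by the filter on low counts. Il27 and Il12rb2 were among them and were not tested in the main fit.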
